A study of Mus musculus with 6 samples.

Results

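The genes described are 34 components of integrin and focal adhesion signaling, chosen by name: 12 integrin alpha subunits, 8 integrin beta subunits and 14 cytoplasmic kinases and adaptors. Their chromatin was followed in CUT&Tag tables of mouse cardiac fibroblasts, in which a genomic region assigned to a gene carries that gene's symbol. All regions assigned to a member were taken, and for each gene the region with the highest mean density within 3 kb of an annotated transcription start site (TSS) was called its promoter region. In the T set, members held 314 of the 170890 regions of the table for TGF-b against NC (33 members, 30 of them with a promoter region) and 304 of 180118 for TGF-b with siRNA against TGF-b (32 members, 29 with a promoter region). In the S set they held 39 of 52723 regions (20 members, 5 with a promoter region) and 52 of 52579 (19 members, 7 with a promoter region). Regions assigned to any gene numbered 101851 and 104258 in the T set tables and 27257 and 28687 in those of the S set.

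Integrins are heterodimers of one alpha and one beta subunit that span the plasma membrane and bind collagen, laminin, fibronectin and other matrix proteins. On the cytoplasmic side, kindlins activate the beta subunit, the ILK-PINCH-parvin complex and tensins tie it to actin filaments, and focal adhesion kinase with Src, paxillin and p130Cas passes the signal on. In cardiac fibroblasts these adhesions carry the force with which the cell pulls on stiffening matrix, and integrins that bind the latent complex release active TGF-b from it.

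CUT&Tag cuts and tags DNA where an antibody is bound, so a high read density means that the target protein, or another source of cut DNA, was near that place. It does not measure transcripts. The cells were primary cardiac fibroblasts from mouse heart, and each set held 3 libraries: NC, TGF-b, and TGF-b combined with an siRNA. The labels write the last treatment as SiTAZ for the T libraries and SiSRF for the S libraries. The study's text on this experiment instead describes an siRNA to Piezo2, with TAZ and SRF as the proteins profiled. The labels do not name an antibody. The series' design text speaks of Tet3 deletion by Cre virus, which no sample label carries. The neutral names T set and S set are therefore used, with "siRNA" for the third library. Sex, age and strain of the mice are not stated in the labels, nor what NC abbreviates.

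Each group was 1 library, so there was no replicate check, no test between conditions was possible, and "higher" or "lower" below compares 2 libraries. A log2 fold is the log2 ratio of the later over the earlier density. Intervals are 95% Wilson intervals of a region's share of the 2 libraries' reads, turned into a log2 fold, and cover counting error only. The authors called 127036 regions in the T set NC library, 53121 in TGF-b and 134584 with siRNA, against 25891 to 28738 in the S set libraries. The T set TGF-b library thus stands apart in its number of regions and enters both T set comparisons. The part of this in the ratios was not tested. Each table was normalized on its own. The log2 fold over all regions had a median of -0.65 for TGF-b against NC and 0.97 for siRNA against TGF-b among T libraries, and of -0.20 and -0.21 in the S set. Over the promoter regions of all genes the medians were -0.04, 0.20, 0.20 and 0.05 in the same order. Reads given for a region were counted over a 2 kb window, wider than the regions printed, so neighbouring regions share reads. Members' regions held a median of 8 to 13 reads per T set library and 7 to 9 per S set library, so that most single ratios are imprecise. Coordinates are those of the tables and are GRCm39 by the study's methods.

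The first question was how the T set signal at the members' promoter regions differed after TGF-b. Of 30 members with such a region, 5 were at least 2-fold higher in the TGF-b library, namely Fermt2, Itgb1, Ilk, Itgb7 and Itgb8. Over all 16652 genes with a promoter region, 20.6% were that much higher. A further 5 members were at least 2-fold lower, namely Itgav, Itga9, Itga7, Lims2 and Fermt1, beside 25.1% of all genes. The members' median log2 fold was -0.20, with 13 members above 0 and 17 below. The counting interval lay above 0 for 5 members (22.7% of all genes) and below 0 for 7 (21.7% of all genes). The members' shares thus lay near those of all genes. Centred on all regions, 10 members were higher (37.8% of all genes) and 3 lower (14.7% of all genes), with a median of 0.45 beside 0.61 over all genes.

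**Figure D1:**
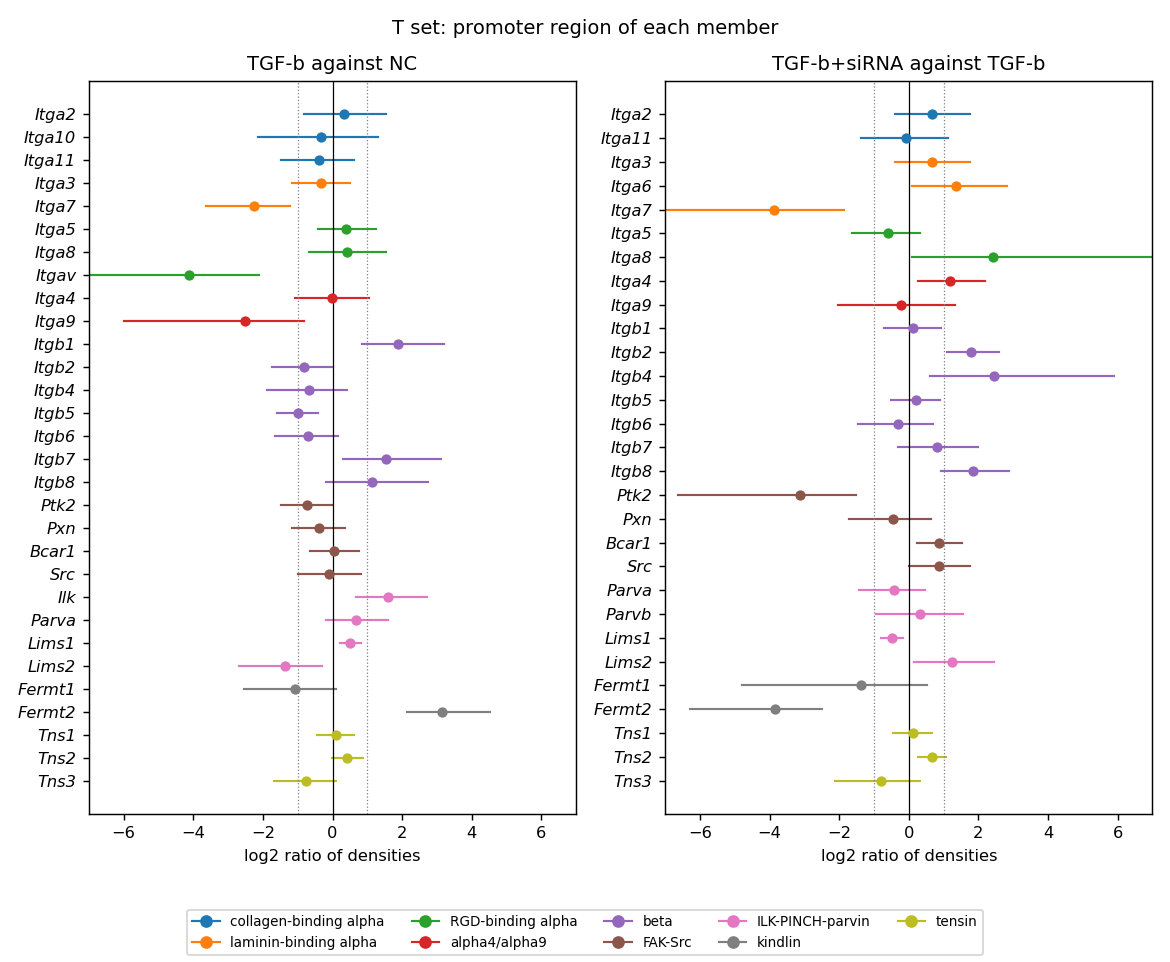
The log2 ratio of normalized read densities at the promoter region of each member in the T set, with TGF-b against NC on the left and siRNA against TGF-b on the right. Points are the ratios of 2 libraries, coloured by role, lines are 95% counting intervals (cut at the axis where the lower or upper bound is open), and dotted lines mark 2-fold. Fermt2 had the highest ratio on the left at 3.13 and lay at -3.83 on the right.

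Fermt2 encodes kindlin-2, the kindlin of fibroblasts and muscle, which binds the beta subunit tail and activates the integrin. Its promoter region, chr14:45766895-45766992 in an exon 300 bp from a TSS, held 6 reads under NC, 58 under TGF-b and 2 under siRNA. The TGF-b library was therefore well above both others. Normalized densities were 3.44 for NC and 30.1 for TGF-b, a log2 fold of 3.13 with an interval of 2.15 to 4.51. In the second table they were 25.1 in TGF-b and 1.76 with siRNA, a log2 fold of -3.83 with an interval of -6.29 to -2.50. A neighbouring promoter-annotated region, chr14:45767480-45767708, held 8, 48 and 2 reads in the same order, with log2 folds of 2.49 and -3.57. Regions this close share reads, so the pair is not independent evidence.

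Itgb1, the beta subunit shared by the collagen, laminin and fibronectin receptors, held 7 reads under NC, 27 under TGF-b and 21 under siRNA at chr8:129412004-129412175, 46 bp upstream of its TSS. The NC library was the lowest in reads. The log2 fold was 1.89 for TGF-b against NC, with an interval of 0.86 to 3.20, and 0.12 for siRNA against TGF-b, with an interval of -0.70 to 0.92. The latter was -0.85 when centred on all regions. Ilk, the integrin-linked pseudokinase that joins the beta subunit tail to parvin, held 10 reads under NC and 31 under TGF-b at chr7:105385592-105385677, 165 bp upstream of its TSS. That gave a log2 fold of 1.60 with an interval of 0.68 to 2.70. It was the single Ilk region of the first table, and the second table lists none, so its reads in the siRNA library are not known.

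The promoter sequences of Fermt2, Itgb1 and Ilk are printed because their regions held the highest TGF-b to NC ratios among members with at least 10 reads in the larger library, and that of Lims1 because its region was the densest. They are RefSeq sequences of GRCm38.p6, 250 bases before to 50 after the start, 5′ to 3′ on the gene's strand, and were matched by symbol and placed through the shared transcript, since the tables use another build. Relative to the RefSeq start, the CUT&Tag region covered -186 to 42 for Fermt2 (the neighbouring region), -131 to 40 for Itgb1, -205 to -120 for Ilk and -661 to 141 for Lims1. Capitals mark a CArG box, the sequence that SRF binds, in Fermt2, and the letters of the TEAD motif in Itgb1.
Fermt2: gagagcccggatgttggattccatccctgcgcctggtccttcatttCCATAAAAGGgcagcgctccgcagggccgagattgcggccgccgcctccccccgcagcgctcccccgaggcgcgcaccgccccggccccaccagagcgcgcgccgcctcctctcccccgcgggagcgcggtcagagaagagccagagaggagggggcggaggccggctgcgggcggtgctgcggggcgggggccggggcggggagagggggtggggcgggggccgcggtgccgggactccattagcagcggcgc
Itgb1: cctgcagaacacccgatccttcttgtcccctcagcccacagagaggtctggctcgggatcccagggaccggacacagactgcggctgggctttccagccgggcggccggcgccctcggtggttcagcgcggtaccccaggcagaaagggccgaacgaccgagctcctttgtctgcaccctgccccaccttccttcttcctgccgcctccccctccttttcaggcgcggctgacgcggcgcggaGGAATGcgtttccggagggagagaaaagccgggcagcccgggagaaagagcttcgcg
Ilk: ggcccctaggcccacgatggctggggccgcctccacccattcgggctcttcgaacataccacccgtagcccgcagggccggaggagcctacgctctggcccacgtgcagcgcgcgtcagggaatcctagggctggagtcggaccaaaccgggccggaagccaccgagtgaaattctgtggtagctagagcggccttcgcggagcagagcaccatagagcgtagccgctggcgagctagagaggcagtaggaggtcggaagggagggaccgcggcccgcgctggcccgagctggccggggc
Lims1: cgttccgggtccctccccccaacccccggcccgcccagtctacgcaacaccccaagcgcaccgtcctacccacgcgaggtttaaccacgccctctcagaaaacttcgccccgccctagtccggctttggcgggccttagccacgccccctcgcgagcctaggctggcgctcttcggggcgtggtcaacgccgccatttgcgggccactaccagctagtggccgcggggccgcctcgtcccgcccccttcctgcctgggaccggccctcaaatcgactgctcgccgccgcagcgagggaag
The Fermt2 window is chr14:45530016-45530315 on the minus strand, with the CArG box starting at -204, just upstream of the region. The Itgb1 window is chr8:128685404-128685703 on the plus strand, with the motif starting at -7, inside the region. Reads were counted over 2 kb, beyond the bounds of these regions. The windows of Ilk (chr7:105736340-105736639) and Lims1 (chr10:58323297-58323596), both on the plus strand, held neither motif.

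RefSeq promoters were at hand for 25 of the 34 genes, 31 windows in all. The TEAD motif, searched as CATTCC on both strands, was in 2 of the 31 (Itga10 and Itgb1) and in 14.7% of 32851 mouse promoters of the same length. The CArG box, also searched on both strands, was in 2 of the 31 (Fermt2 and an internal promoter of Itgb6) and in 1.63% of all. The median GC content of the 31 windows was 64.3%, compared with 52.7% over all, with a median of 16.0 CpG dinucleotides per window against 7.0. Matches are descriptions of letters, not of binding.

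Among the cytoplasmic adaptors, Lims1, which encodes the LIM protein PINCH-1, held the densest member region of both sets. In the T set, chr10:58158708-58159510 held 145 reads under NC, 230 under TGF-b and 116 under siRNA. TGF-b was the highest library. Densities were 76.8 and 109.8 in the first table, a log2 fold of 0.51 (0.22 to 0.82), and 97.1 and 69.6 in the second, a log2 fold of -0.48 (-0.81 to -0.17). Centred on all regions, these were 1.17 and -1.45. A smaller region nearer a TSS had a log2 fold of -1.17 in the first comparison, so that the direction at Lims1 rested on the region chosen. Parva, the alpha-parvin of the same complex, held 16, 25 and 13 reads across NC, TGF-b and siRNA at one intronic region, with log2 folds of 0.66 (-0.20 to 1.58) and -0.42 (-1.42 to 0.47) that were within counting error. Lims2, which encodes PINCH-2, held 21 reads under NC and 7 under TGF-b at an intronic region near an internal start (log2 fold -1.37), whereas another of its promoter regions held 9 reads under TGF-b and 16 under siRNA (log2 fold 1.23). Parvb, beta-parvin, had a promoter region in the second table alone, with 10 and 9 reads.

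Fermt1 encodes kindlin-1, the epithelial kindlin. An intronic region 1391 bp from a TSS held 15 reads under NC, 6 under TGF-b and 1 under siRNA, with log2 folds of -1.08 (-2.53 to 0.11) and -1.36 (-4.80 to 0.52), neither of which cleared counting error. The kindlin genes thus had log2 folds of opposite sign for TGF-b against NC in the T set, 3.13 for Fermt2 and -1.08 for Fermt1.

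Among the kinases and docking proteins, Ptk2, which encodes focal adhesion kinase, held 39 reads under NC, 23 under TGF-b and 1 under siRNA at chr15:73115168-73115270. This region lies at an internal start, 180033 bp from the 5′-most protein-coding transcript start of the gene in GENCODE M21. The siRNA library was the low one, with log2 folds of -0.72 (-1.48 to -0.01) and -3.13 (-6.62 to -1.52). The former was -0.07 when centred on all regions. Bcar1, which encodes the docking protein p130Cas, held 32, 33 and 44 reads across NC, TGF-b and siRNA, 90 bp upstream of an alternative start. Its log2 fold was 0.05 for TGF-b against NC and 0.88 (0.25 to 1.54) for siRNA against TGF-b, and the latter was -0.09 once the median of all regions was subtracted. Src, the kinase recruited by focal adhesion kinase, held 20, 18 and 24 reads, with log2 folds of -0.09 and 0.87 (0.02 to 1.75), the latter being -0.10 when centred. The region nearest to any Src start, chr2:157299180-157299284 in an exon, lies at another start further inside the gene. It held 8, 19 and 13 reads in the same order. Its log2 folds were 1.24 (0.18 to 2.50) and -0.05 (-1.08 to 0.92), so that the values for Src rested on the region and start chosen. Pxn, paxillin, held 31 and 23 reads in NC and TGF-b at an internal start (log2 fold -0.39) and 16 and 8 in TGF-b and siRNA at another region (-0.46), both within counting error.

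Tensins link the beta subunit tail to actin and mark the elongated fibrillar adhesions of fibroblasts. Tns2 held 68, 96 and 108 reads across NC, TGF-b and siRNA at chr15:102012050-102012257, and its normalized densities were 35.4 and 47.3 in the first table and 40.9 and 64.7 in the second. The log2 folds were 0.42 (-0.02 to 0.87) and 0.66 (0.27 to 1.06), and the latter was -0.31 when centred on all regions. Tns1 held 52, 57 and 44 reads at chr1:74002357-74002592, again at an internal start, with log2 folds of 0.09 (-0.44 to 0.63) and 0.12 (-0.45 to 0.67). Centred on all regions, they were 0.74 and -0.85, so that how close the 3 libraries lie at Tns1 depends on the scaling. The densest Tns3 region near a start held 27 reads under NC and 15 under TGF-b (log2 fold -0.76), but the region nearest to that start, which is 48 bp from it in the 5′ UTR, held 1, 18 and 7 reads across NC, TGF-b and siRNA. Its log2 fold was 3.41 (1.77 to 6.89) for TGF-b against NC and -0.79 (-2.12 to 0.32) for siRNA against TGF-b.

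**Figure D2:**
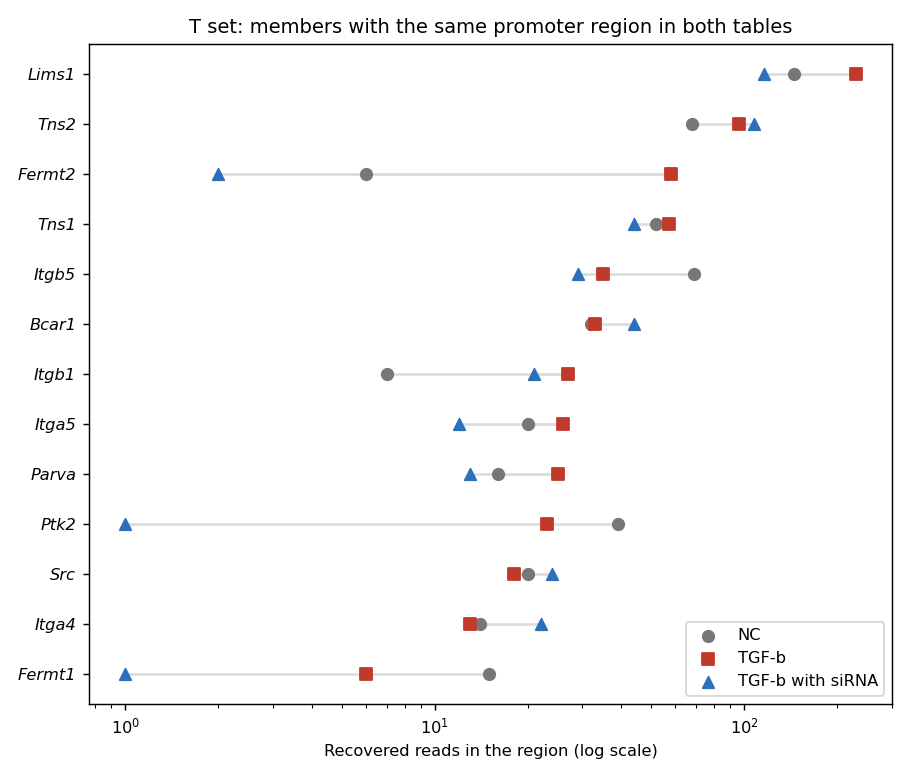
Reads recovered in each T set library at the promoter region of the 13 members for which the same region was chosen in both tables, on a log axis. Each row is 1 member with 1 point per library (grey circle NC, red square TGF-b, blue triangle siRNA). Fermt2 went from 6 to 58 to 2 reads, and Ptk2 from 39 to 23 to 1.

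Among the receptor subunits, Itgb5, a partner of alpha-v that binds vitronectin and latent TGF-b, held 69 reads under NC, 35 under TGF-b and 29 under siRNA at chr16:33712039-33712363, an internal start. NC was the high library, with log2 folds of -0.99 (-1.59 to -0.43) and 0.21 (-0.50 to 0.91), or -0.34 and -0.76 when centred. Itgav, the alpha-v subunit, held 19 reads under NC and 0 under TGF-b at an intronic region 1450 bp from its start, at least 4.38-fold lower when the count of 0 was set to 3 reads. It had no promoter region in the second table. Itga5, the fibronectin receptor subunit, held 20, 26 and 12 reads across NC, TGF-b and siRNA in its 5′ UTR, with log2 folds of 0.40 (-0.41 to 1.25) and -0.59 (-1.62 to 0.32). Itga8, the alpha subunit of the nephronectin receptor, held 11 and 14 reads in the first table, a log2 fold of 0.41, and at most 3 reads in either library at its region of the second.

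Of the laminin-binding subunits, Itga7 held 34 reads under NC and 6 under TGF-b at an internal promoter (log2 fold -2.25, interval -3.64 to -1.21). At a different, intronic region it held 19 reads under TGF-b and 0 under siRNA, at least 3.67-fold lower. Itga3 held 26 and 20 reads in NC and TGF-b at its densest region (log2 fold -0.32). The region nearest to an annotated start lies at another start of the gene and held 22 and 5 reads (log2 fold -1.84). For siRNA against TGF-b, the Itga3 promoter region was at 0.67. All 3 Itga3 regions of that table lay between 0.67 and 3.03, 2 of them at least 2-fold higher. Itga6 had a promoter region in the second table alone, with 6 reads under TGF-b and 12 under siRNA (log2 fold 1.35, interval 0.10 to 2.82). The collagen-binding subunits Itga2, Itga10 and Itga11 lay between -0.39 and 0.34 for TGF-b against NC, and Itga2 and Itga11 at 0.67 and -0.07 for siRNA against TGF-b, all within counting error. Itga1 had no region in either T set table.

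Itga9, which pairs with beta-1 and binds tenascin-C, held 12 reads under NC and 1 under TGF-b 67 bp upstream of its TSS (log2 fold -2.52, interval -5.99 to -0.82). Itga4, the other subunit of this family, held 14, 13 and 22 reads across NC, TGF-b and siRNA, with log2 folds of -0.02 and 1.18 (0.26 to 2.20). Of the leukocyte beta subunits, Itgb7 held 5 reads under NC and 15 under TGF-b at an intronic region (log2 fold 1.53, interval 0.30 to 3.11). An Itgb7 exon region 56 bp from another start held 7 and 10 reads (log2 fold 0.58, interval -0.71 to 1.98), so its 2-fold difference rested on the region chosen. Itgb2 held 30 and 16 reads in NC and TGF-b (log2 fold -0.82) and, at another intronic region, 19 in TGF-b and 49 with siRNA (log2 fold 1.80, interval 1.09 to 2.60). Itgb8, an activator of latent TGF-b, held 5 and 11 reads in NC and TGF-b 181 bp upstream of its start (log2 fold 1.13), and 11 and 30 reads in TGF-b and siRNA at a neighbouring region 32 bp upstream (log2 fold 1.84, interval 0.94 to 2.89). These regions lie within 2 kb of each other and share reads. Itgb4 and Itgb6, which are mainly epithelial, lay at -0.67 and -0.70 for TGF-b against NC, both within counting error. Itgb3 had no promoter region in either T set table.

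When the T set siRNA library was set against TGF-b, 7 of 29 members were at least 2-fold higher at the promoter region (Itgb4, Itga8, Itgb8, Itgb2, Itga6, Lims2 and Itga4), where the share over all 16732 genes was 31.5%. Itga8 and Itgb4 among these had at most 3 reads in the TGF-b library. Itgb4 was at 2.45 there but at -1.88 (-5.33 to -0.11) at the region nearest to the TSS, which held 9 reads under TGF-b and 1 under siRNA. The members at least 2-fold lower were 4, Itga7, Fermt2, Ptk2 and Fermt1, beside 20.4% of all genes. Counting intervals lay above 0 for 10 members (27.0% of all genes) and below 0 for 4 (20.3% of all genes). The members' median log2 fold was 0.21. Centred on all regions, 2 members were higher (15.9% of all genes) and 12 lower (43.5% of all genes), with a median of -0.76 beside -0.77 over all genes. Centring takes 1 constant off every ratio of a table, so it says nothing of the members in particular. Under it Itga4, Lims2, Itga6, Itgb2 and Itgb8 lay at 0.21, 0.26, 0.38, 0.83 and 0.87, below 2-fold. Of the 13 members with the same promoter region in both tables, 4 lay above 0 for TGF-b against NC and below 0 for siRNA against TGF-b (Itga5, Parva, Lims1 and Fermt2), 3 the other way, 4 above 0 in both and 2 below 0 in both. Over the 7389 genes with the same promoter region in both tables the shares were 57.0%, 12.2%, 17.3% and 13.5%. Several of the members' signs rest on values near 0, such as -0.02 for Itga4, 0.05 for Bcar1 and 0.09 for Tns1, so the counts describe signs only. Both comparisons share the TGF-b library, so a high count there gives the first of these patterns and a low count the second.

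The choice of start matters for these genes. The reference was the 5′-most start among a gene's protein-coding transcripts in GENCODE M21. In the first T set table, 18 of the 30 promoter regions belonged to a transcript that starts within 1 kb of it. A further 11 belonged to one that starts further inside the gene, and 1 could not be matched. For the second T set table the numbers were 14, 14 and 1.

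The second question was what all member regions showed, including those at promoters. Promoter-annotated regions were 29 of 314 and 32 of 304 in the T set tables. Their median log2 fold for TGF-b against NC was 0.05, beside -0.63 for intronic member regions. For siRNA against TGF-b it was 0.67 beside 0.63. Introns held 78.3% and 80.6% of member regions in the T set tables and 84.6% and 82.7% in the S set tables, where gene-assigned regions gave 74.6%, 75.2%, 72.2% and 67.6% in the same order. For TGF-b against NC in the T set, 44 of 314 member regions were at least 2-fold higher and 116 at least 2-fold lower, where all regions assigned to a gene gave 17.3% and 39.9%. For siRNA against TGF-b, 113 of 304 were at least 2-fold higher and 39 lower, beside 46.9% and 16.7%. The median log2 fold of member regions was -0.52 and 0.63 in the 2 tables, compared with -0.58 and 0.86 over gene-assigned regions. Both medians had the sign of the whole table, in which the TGF-b library had the fewest called regions. With the median of the whole table subtracted, the members' medians were 0.13 and -0.34, beside 0.07 and -0.11 over gene-assigned regions. Of the 314 and 304 regions, 116 and 120 lay within 2 kb of another member region and share reads with it.

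Tns1, Tns3, Itga9, Parva and Itgb6 held the most regions in the first T set table, with 37, 31, 26, 16 and 15. In the second they held 41, 33, 23, 14 and 29. Across the 34 members, the number of regions went with the length of the longest transcript named in the tables (Spearman 0.58 and 0.62 for the T set tables, 0.25 and 0.65 for those of the S set, as a description across genes that share libraries). Itga9 had 16 of 26 regions at least 2-fold lower with TGF-b and 6 higher, a median log2 fold of -1.52. Tns3 had 14 of 31 lower and 4 higher, with a median of -0.85. Tns1 had 11 of 37 lower and 3 higher, with a median of -0.18. Parva had 2 of 16 in each direction, with a median of 0.01. Itgb6 had 4 of 15 lower and 2 higher, with a median of -0.20, and 10 of 29 higher and 1 lower with siRNA.

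**Figure D3:**
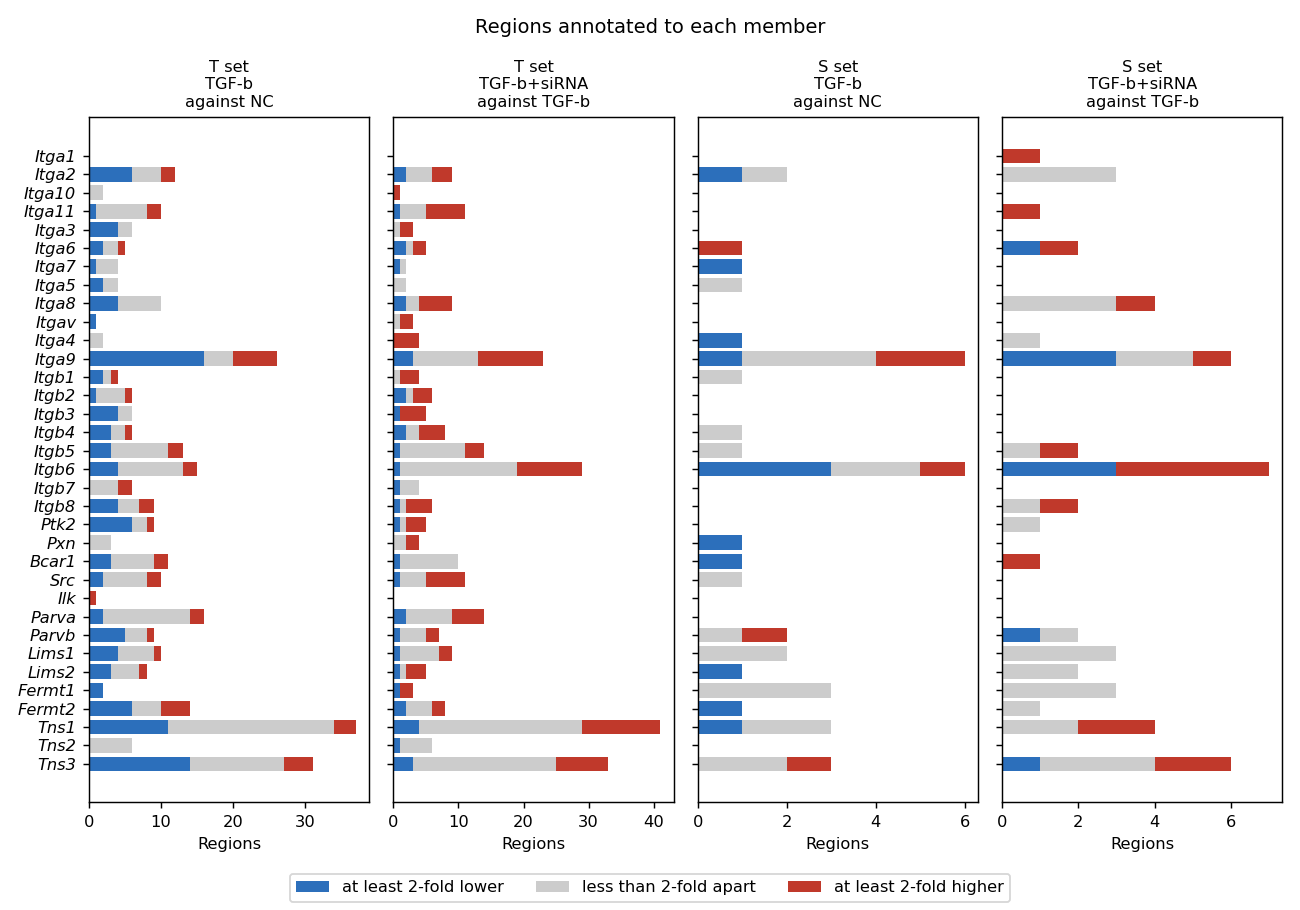
Number of regions assigned to each member in each of the 4 tables, split into those at least 2-fold lower (blue), less than 2-fold apart (grey) and at least 2-fold higher (red) in the later library. The horizontal scales differ between the 4 panels. Tns1 held 37 and 41 regions in the T set tables, and Itgb6 6 and 7 in the S set tables.

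The tensins also held dense intronic regions. At Tns3, chr11:8413909-8414108 held 127 reads under NC, 74 under TGF-b and 24 under siRNA, with log2 folds of -0.86 (-1.28 to -0.46) and -1.10 (-1.80 to -0.49). At Tns1, chr1:74088627-74088952 held 123, 79 and 34 reads, with log2 folds of -0.72 (-1.14 to -0.32) and -0.71 (-1.31 to -0.16). NC was the highest and siRNA the lowest library at both in the authors' scaling. Another Tns1 intron region, chr1:74073995-74074265, held 21, 43 and 0 reads and was highest in TGF-b. A further one, chr1:74134958-74135190, went the other way with 34, 7 and 15 reads and log2 folds of -2.06 (-3.35 to -1.07) and 1.46 (0.31 to 2.81).

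Among genes with fewer regions, the T set counts mostly went the way of the table. Ptk2 had 6 of 9 regions at least 2-fold lower with TGF-b and 1 higher, Itga3 had 4 of 6 lower and 0 higher, and Itgb3 had 4 of 6 lower and 0 higher. With siRNA, Itga4 had 4 of 4 regions at least 2-fold higher and Itgb3 had 4 of 5. Of the 6 Tns2 regions, 0 were at least 2-fold apart for TGF-b against NC. By role, regions of the alpha-4 and alpha-9 subunits had the lowest median for that comparison, -1.39 over 28 regions. Of these, 26 were Itga9 regions with a median of -1.52, and the 2 Itga4 regions were both at -0.02. Regions of the collagen-binding subunits had the highest median, -0.23 over 24 regions.

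Single intronic regions in Parva, Itgb3 and Itgb6 showed higher reads with TGF-b. In Parva, chr7:112053146-112053404 gave 13, 35 and 26 reads across NC, TGF-b and siRNA, with log2 folds of 1.41 (0.57 to 2.38) and 0.06 (-0.68 to 0.77). In Itgb3, the beta-3 subunit that pairs with alpha-v, chr11:104516894-104517023 gave 14, 25 and 1 reads, with log2 folds of 0.85 (-0.04 to 1.82) and -3.25 (-6.73 to -1.65). In Itgb6, chr2:60462189-60462854 gave 22, 42 and 24 reads, with log2 folds of 0.92 (0.21 to 1.68) and -0.31 (-1.05 to 0.39). In reads TGF-b was the highest library at all 3 regions. For siRNA against TGF-b, the Parva and Itgb6 ratios were within counting error, as was the Itgb3 ratio for TGF-b against NC. The densest Itgb6 region, chr2:60519479-60519751, went the other way with 60, 33 and 28 reads, a log2 fold of -0.86 (-1.49 to -0.27) and then 0.25 (-0.48 to 0.96).

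In the T set, 129 member regions of 29 genes were present in both tables at the same coordinates, and the reads of the TGF-b library were equal in all 129. Of these, 40 were at least 2-fold higher with TGF-b than NC, and 17 of the 40 were then at least 2-fold lower with siRNA. Over all 58640 regions present in both T set tables, 27361 were higher and 16033 of those then lower. The opposite course, lower and then higher, was seen at 5 member regions and at 2554 regions in all. A region enters both tables when it was called in TGF-b or in both of the other libraries, and that choice bears on these shares.

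In the S set, members with a promoter region were few, 5 for TGF-b against NC and 7 for siRNA against TGF-b. None of the 5 was at least 2-fold higher (22.2% of all genes) and 1, Itga7, was at least 2-fold lower (15.9% of all genes). Of the 7, Bcar1 and Itga1 were at least 2-fold higher (13.6% of all genes) and 0 were lower (15.1% of all genes).

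**Figure D4:**
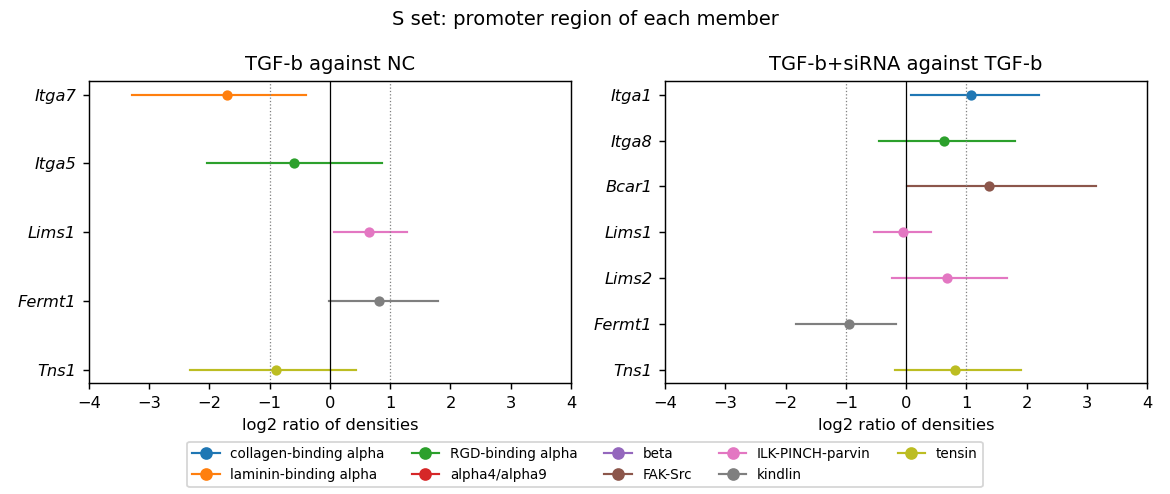
The log2 ratio of normalized read densities at the promoter region of each member in the S set, with TGF-b against NC on the left (5 members) and siRNA against TGF-b on the right (7 members). Points are ratios of 2 libraries, lines are 95% counting intervals and dotted lines mark 2-fold. Lims1 lay at 0.65 on the left and -0.06 on the right.

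Lims1 was again the densest member. At chr10:58158907-58159333, 168 bp upstream of its TSS and inside the T set region, it held 31 reads under NC, 71 under TGF-b and 69 under siRNA. NC was the low library and the other two were alike in reads. Densities were 19.1 and 30.1 in the first table, a log2 fold of 0.65 (0.07 to 1.28), and 36.2 and 34.8 in the second, a log2 fold of -0.06 (-0.53 to 0.42). Fermt1 held 13, 35 and 17 reads across NC, TGF-b and siRNA at chr2:132787281-132787582 in its 5′ UTR. TGF-b was the high library, with log2 folds of 0.82 (-0.02 to 1.79) and -0.95 (-1.82 to -0.17). This is a different region from the intronic one of the T set, where NC was the high library.

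Itga7 held 12 reads under NC and 5 under TGF-b in an exon near an internal start, a log2 fold of -1.70 (-3.29 to -0.40). Tns1 held 9 and 7 reads (log2 fold -0.90) and Itga5 7 and 7 (-0.59), both within counting error. In the second table, Itga1, the collagen-binding alpha-1 subunit, held 10 reads under TGF-b and 21 under siRNA at chr13:115238503-115238590, a log2 fold of 1.08 (0.08 to 2.21). It was the single region of Itga1 in the 4 tables. Its RefSeq window (GRCm38.p6, chr13:115101915-115102214, minus strand) is printed for that reason, with the region covering -90 to -3 of the start and neither motif in it.
Itga1: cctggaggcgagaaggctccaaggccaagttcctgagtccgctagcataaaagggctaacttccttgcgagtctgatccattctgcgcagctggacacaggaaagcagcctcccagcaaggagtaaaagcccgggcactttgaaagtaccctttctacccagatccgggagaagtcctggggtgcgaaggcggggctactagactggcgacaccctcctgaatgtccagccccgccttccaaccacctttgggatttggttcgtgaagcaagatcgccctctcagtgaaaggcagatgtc
Bcar1 held 4 and 11 reads in an intron 616 bp from its first start, a log2 fold of 1.38 (0.01 to 3.15). Itga8 held 10 and 15 reads (log2 fold 0.63), Lims2 14 and 22 (0.68) and Tns1 11 and 19 (0.81), all within counting error.

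Over all S set member regions, 6 of 39 were at least 2-fold higher with TGF-b and 12 lower, beside 18.4% and 25.7% of gene-assigned regions. With siRNA, 16 of 52 were higher and 9 lower, beside 16.0% and 24.1%. The median log2 fold of member regions was -0.26 for TGF-b against NC (gene-assigned regions -0.16) and 0.54 for siRNA against TGF-b (gene-assigned regions -0.09). In that last table, 35 of the 52 member regions, 67.3%, were called in the siRNA library alone, compared with 53.1% of gene-assigned regions. Beta subunits made up 11 of the 52 regions, 6 higher and 3 lower, and tensins 10, 4 higher and 1 lower. The alpha-4 and alpha-9 subunits held 7, 1 higher and 3 lower, and the ILK-PINCH-parvin complex 7, 0 higher and 1 lower. Itgb6 and Itga9 held the most regions in the first table, 6 each, and Itgb6 in the second with 7, followed by Itga9 and Tns3 with 6 each.

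Across the S set, 18 member regions of 10 genes were present in both tables. Of these, 6 were at least 2-fold higher with TGF-b, 5 of them then at least 2-fold lower with siRNA, and 1 took the opposite course. Over all 26937 regions present in both S set tables, the numbers were 9109, 5946 and 223. At Itga6, the laminin-binding subunit, chr2:71632100-71632310 in an intron held 3 reads under NC, 22 under TGF-b and 1 under siRNA, with log2 folds of 1.94 (0.65 to 3.94) and -3.40 (-6.88 to -1.78). At Itga9, chr9:118523555-118523704 held 2, 14 and 1 reads, with log2 folds of 1.73 (0.24 to 4.19) and -2.77 (-6.24 to -1.09). Both were highest in TGF-b, on few reads. Tns1 took the opposite course in an intron, chr1:74160984-74161103, with 10, 1 and 10 reads and log2 folds of -3.07 (-6.53 to -1.33) and 2.61 (0.87 to 6.07).

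Few member regions lay at the same place in both sets. For TGF-b against NC, 3 of the 314 T set regions (0.955%) overlapped 4 of the 39 S set regions (10.3%), where gene-assigned regions gave 4.53% and 16.6%. For siRNA against TGF-b, 9 of 304 (2.96%) overlapped 10 of 52 (19.2%), beside 5.76% and 20.8%. Lims1 was the one member whose promoter region was shared in both comparisons. Its T set and S set ratios were 0.51 and 0.65 for TGF-b against NC, and -0.48 and -0.06 for siRNA against TGF-b. An intronic Itgb5 region, chr16:33737078-33737564 in the T set, was also shared in both. It held 66, 55 and 48 reads across NC, TGF-b and siRNA of the T set and 8, 13 and 17 among S libraries, with all 4 ratios within counting error.

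Other focal adhesion genes, a list of 52 that are not members, gave a median promoter log2 fold of -0.06 for TGF-b against NC in the T set, with 9 of 46 at least 2-fold higher and 11 lower. With siRNA the median was -0.25, with 10 of 43 higher and 11 lower. In the S set the medians were 0.26 (4 of 18 higher, 3 lower) and -0.19 (3 of 19 higher, 4 lower). As a check of the labelled cell type, fibroblast markers had a promoter region for 6 and 4 of 9 genes in the T set tables and for 1 and 0 in the S set tables. Cardiomyocyte markers had one for 6 and 4 of 7 genes in the T set and for 4 and 3 in the S set, endothelial markers for 4 and 4 of 6 and for 1 and 1, leukocyte markers for 2 and 4 of 6 and for 1 and 1, and epithelial markers for 3 and 1 of 5 and for 1 and 2. A region at a gene does not show that the gene is expressed, so these tables do not separate the cell types. Their part in the values above was not tested.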

How the data were processed

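The authors made CUT&Tag libraries from mouse primary cardiac fibroblasts and deposited 4 tables, 2 per set, in which the regions called in either of a pair of libraries were merged. The study's methods name Bowtie2 and GRCm39, whereas the submitters' processing notes list BWA 0.7.12 and mm10. None of the 103 member transcripts that could be compared had the coordinates of GRCm38 (GENCODE M21), so coordinates were taken as GRCm39. The unit of the deposited values, a normalized read density, is signal: the read count of a 2 kb window plus 1, at 0.5 per read, which the authors rescaled along a line in mean log2 density. The deposited log2 ratio, mean and p-value of the authors' own comparison were not used. All columns holding a sample's density were used.

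The log2 ratio of the later over the earlier density was computed with Python 3.11.15, numpy 2.4.6, pandas 2.3.3 and scipy 1.17.1. With the line undone, 99.98% to 99.99% of regions, and all member regions, came out at whole numbers of reads to within 0.1. That step was tested on simulated data. No test was fitted across regions, because each group had 1 library. Intervals are 95% Wilson intervals on the recovered reads and floors are 3 reads per library. PCR duplicates and unequal library sizes are not covered by them. Symbols and distances to the TSS are those of the tables, and a region's midpoint was measured from the nearest transcript, minor ones included. Regions overlapped if they shared 1 bp or more.

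Values are given in full for members with a promoter region in both tables of a set that was among the 8 densest of the first table, for members at least 2-fold apart with 10 or more reads in the larger library, and for the 5 members with most regions. Further members are named to complete each role. Members and lists were chosen with earlier results of these data known. Alternatives were centring, a density filter, a floor of 3 reads, a pseudocount of 0.1 reads, undoing the authors' line, thresholds of 1.5-fold and 4-fold, a window of 1 kb, the nearest region and an overlap of 50%. One, keeping regions at least 2 kb apart, was chosen after seeing the data.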

Additional observations from a re-analysis of the deposited data

Results flagged for a closer look

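Some members had log2 ratios of opposite sign in the T set and the S set for the same comparison, each from 1 library per group, and the differences between sets were not tested. At promoter regions, for TGF-b against NC, the S set minus T set difference was 1.90 for Fermt1 (-1.08 in the T set, 0.82 in the S set), -0.99 for Itga5 (0.40 and -0.59) and -0.99 for Tns1 (0.09 and -0.90). In all 3 the promoter regions of the 2 sets were different places.

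At regions that overlap between the sets, the difference for TGF-b against NC was 3.16 at an Itga9 intron (-1.43 and 1.73) and 0.37 at an Itgb5 intron (-0.31 and 0.06). For siRNA against TGF-b it was -3.49 at an Itga6 intron (0.09 and -3.40) and 1.40 at another Itga9 intron (-0.85 and 0.55). The Itga9 region of the first comparison held 11 and 3 reads in the T set and 2 and 14 in the S set. The Itga6 region held 8 and 6 reads in the T set and 22 and 1 in the S set.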

How the results depend on the processing

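No paired analysis was possible because each group has 1 library, and no library could be left out for the same reason. Centring on all regions takes 1 constant off every ratio, and turned the sign of the T set medians. For TGF-b against NC, the median became 0.45 at promoter regions and 0.13 over all member regions, with 10 members higher and 3 lower at the promoter and 82 regions higher and 68 lower (27.6% and 25.5% of gene-assigned regions). For siRNA against TGF-b the medians became -0.76 and -0.34, with 2 members higher and 12 lower, and 58 regions higher and 105 lower (26.9% and 30.8% of gene-assigned regions). The siRNA ratio became -0.09 for Bcar1, -0.10 for Src and -0.31 for Tns2. In the S set, centring put 1 of 5 members higher for TGF-b (28.0% of all genes) and 1 lower (12.6% of all genes).

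The region nearest to a TSS can lie at another start of the gene. At it, Lims1 was at -1.17 and Src at 1.24 for TGF-b against NC. There and within 1 kb of a TSS the siRNA ratio was -1.88 for Itgb4 and -0.05 for Src. Within 1 kb of a TSS, the T set promoter median for TGF-b against NC also turned in sign, from -0.20 to 0.09 over 27 members.

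Without the authors' line, T set siRNA gave 4 members higher, 64 regions lower and a median of 0.17 over all member regions, S set TGF-b gave 2 members and 14 regions higher, and S set siRNA gave 1 member lower. Setting reads of 3 or fewer to 3 left 21 T set regions lower with siRNA. Shares over all genes or regions were not computed for these settings.

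Among regions of above-median density, 20 T set regions were higher with TGF-b, and 75 were higher and 18 lower with siRNA. No share over all gene-assigned regions was computed under this filter, so its counts describe the members alone. In the S set, 1 region was higher and 2 lower with TGF-b, and 4 were higher and 1 lower with siRNA, beside 1 member higher at the promoter.

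At 1.5-fold, T set members lower with TGF-b were 11 of 30 and higher with siRNA 13 of 29. Shares over all genes or regions were not computed at 1.5-fold or 4-fold, so these counts do not set the members apart. In the S set, 2 members were higher and 3 lower with TGF-b, 12 regions were higher, and with siRNA 5 members were higher and 1 lower. At 4-fold, T set TGF-b left 1 member higher, 3 lower, 21 regions higher and 52 lower, and T set siRNA 2 members higher, 57 regions higher and 20 lower. S set TGF-b left 0 members lower, 0 regions higher and 4 lower, and S set siRNA 0 members higher, 5 regions higher and 4 lower.

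The remaining 144 of these values, including those with a pseudocount of 0.1 reads, an overlap of 50% and, chosen after seeing the data, regions at least 2 kb apart, stayed within 1.5 times of the count or, for medians, inside the 95% rank interval of the member median. Beyond centring, the causes were not tested. Depth limits all single ratios: 92 of 314 and 113 of 304 T set member regions, and 17 of 39 and 19 of 52 in the S set, had 3 or fewer reads in a library.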
